A study of Mus musculus with 75 samples.

Results

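The activation domain TA1 of the NF-kB subunit RelA was removed, and the messenger RNA response to tumour necrosis factor (TNF) at 0.5 h was set against that of intact RelA. The comparison rests on 8 of the 75 RNA-seq libraries of the study: RelA-WT and RelA-dTA1, at 0 h and 0.5 h, in set 1 and set 2. The members are the libraries of these constructs and times, taken by their labels and not by a measured value. They and the gene lists were, however, chosen with earlier results of these data known. Counts over lists are therefore descriptions. All cells were C57BL/6 mouse embryonic fibroblasts with the genotype p53-/-crel-/-rela-/-, so every group, controls included, lacked p53, c-Rel and endogenous RelA. The constructs were put back with the retroviral vector pBABE-puro. RelA-WT is wild-type RelA, RelA-dTA1 is RelA without TA1, RelA-dTAD is RelA without its transactivation domains, and EV is the vector without RelA. After a night in 0.5% serum the cells received TNF at 10 ng/ml for 0, 0.5, 1, 3 or 8 h. There was 1 library per construct, time and set, and the labels do not say that the sets are separate infections or cultures. All p-values therefore measure the spread between these libraries, which may be technical. No cells kept without TNF to the later times were analysed here.

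NF-kB dimers that hold RelA are kept in the cytoplasm by IkB proteins until TNF signalling causes the IkB to be degraded. RelA then enters the nucleus, binds kB sites and activates inflammatory genes through a C-terminal transactivation domain, which is made of the regions TA1 and TA2. Among its earliest targets in fibroblasts are genes for its own inhibitors, which close a negative feedback loop. TNF also activates MAP kinases, and these turn on immediate early genes such as Fos and Egr1 without RelA.

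Each library of set 1 had 5125690 to 6915919 reads assigned to genes, and each of set 2 had 12220514 to 19141091, so set 2 fixes low values more closely. Levels are given as CPM, the read count of a gene relative to the scaled size of its library. Rela reads, which can come from the retroviral transcript, stood at 16.5 and 15.4 CPM in EV at 0 h (set 1, then set 2). They stood at 1144 and 1468 CPM in RelA-WT and at 842 and 1445 CPM in RelA-dTA1. RelA-dTA1 thus held 73.6% of the RelA-WT level in set 1 and 98.4% in set 2 at 0 h, and 75.9% and 97.3% at 0.5 h. Protein was not measured. All 11 fibroblast markers exceeded a mean of 10 CPM over the 8 libraries. Their summed levels were 38510 to 45304 CPM in RelA-WT and 41234 to 49692 CPM in RelA-dTA1. Of the markers of other cells, 0 of 7 macrophage, 0 of 5 epithelial and 0 of 4 muscle genes exceeded 10 CPM, and Myod1 was at 0. The endothelial receptor genes Kdr, Tek and Flt1 did exceed it on average, though Flt1 ranged from 7.56 to 12.8 CPM between libraries. The summed endothelial level was 46.6 to 58.5 CPM over both constructs. In bulk RNA, fewer responding cells and less RNA per cell cannot be told apart.

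TNF raised 157 of the 13665 genes tested within 0.5 h in RelA-WT (1.15%) and 153 in RelA-dTA1 (1.12%), and lowered 21 (0.154%) and 31 (0.227%), so that 1.3% and 1.35% were called in either direction. The 121 genes that rose in both made up 77.1% of the RelA-WT list and 79.1% of the RelA-dTA1 list. The test of the difference, RelA-dTA1 change minus RelA-WT change, called 10 genes lower (0.0732% of genes tested) and 4 higher (0.0293%), or 0.102% in all. Each change was taken within its construct and set, and the changes of RelA-dTA1 and RelA-WT were not paired with each other. The 10 genes were Nfkbia, Tnfaip3, Irf1, Pim1, Gadd45b, Phlda1, Rnd1, Tnfsf9, Tlr2 and Vcam1. Each of the 10 rose past the threshold in RelA-WT and in RelA-dTA1. Their rise was 2.57-fold (Vcam1) to 32.7-fold (Tnfaip3) in RelA-WT and 1.38-fold (Vcam1) to 9.77-fold (Tnfaip3) in RelA-dTA1. At 0.5 h both RelA-dTA1 libraries lay below both RelA-WT libraries for 10 of the 10 genes, while at 0 h the constructs overlapped for 7 of them. The 10 genes were picked by a test on these same libraries, so this order describes them and adds no support. By DESeq2 11 genes were lower, these 10 and Sele. Without any block for the set, 2 genes passed, Irf1 and Nfkbia. Without RelA-WT of set 2, 4 genes were lower, and the lone RelA-WT course was then assumed to vary like the others. Without that course RelA-WT alone gave 93 called genes in place of 178, and without the set 2 course RelA-dTA1 gave 67 in place of 184.

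**Figure D1:**
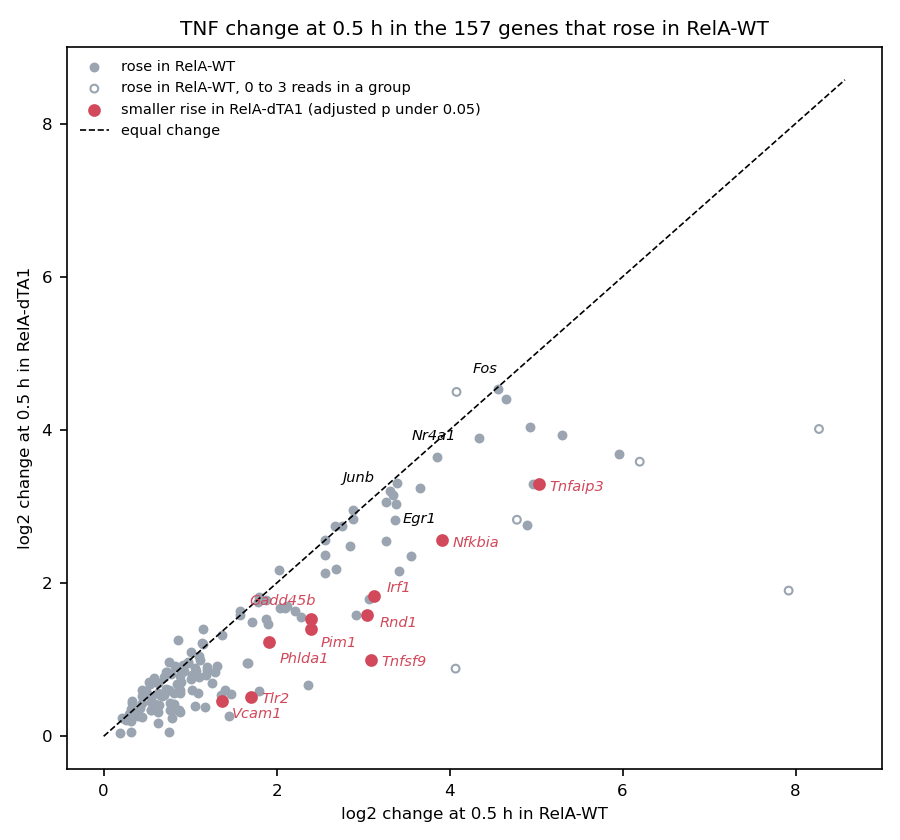
Log2 change at 0.5 h of TNF in RelA-WT (horizontal axis) and RelA-dTA1 (vertical axis) for the 157 genes that rose in RelA-WT, with the line of equal change. The 10 genes that were called lower (red) sit below the line, while Fos, Egr1, Junb and Nr4a1 sit on or close to it; open points had 0 to 3 reads in a group.

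Nfkbia and Tnfaip3 are feedback inhibitors. Nfkbia encodes IkB alpha, the inhibitor that holds RelA in the cytoplasm (chr12:55489411-55492647, minus strand, mm10). In RelA-WT it went from 50.3 and 47.6 CPM at 0 h to 756 and 723 CPM at 0.5 h, and in RelA-dTA1 from 42.9 and 43.7 to 207 and 297 CPM. Both constructs raised it in both sets, and the RelA-dTA1 libraries at 0.5 h lay well below the RelA-WT ones. The log2 change was 3.91 in RelA-WT and 2.56 in RelA-dTA1, a difference of -1.36 ± 0.14 (SE, n = 2 per group, edgeR's quasi-likelihood test, adjusted p = 5.12e-07). Tnfaip3 encodes A20, a ubiquitin-editing enzyme that turns off TNF receptor signalling (chr10:19000910-19015657, minus strand). It went from 26.3 and 17.8 to 725 and 675 CPM in RelA-WT and from 16.6 and 18.6 to 149 and 197 CPM in RelA-dTA1. It started from overlapping levels and had the steepest rise of the 10 in both constructs. The difference in log2 change was -1.74 ± 0.27 (adjusted p = 0.00594).

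Other members of these groups moved less or did not pass. Of 10 IkB family and NF-kB subunit genes, 1 was lower (Nfkbia), 9 lay below 0 and the median difference was -0.26 on the log2 scale. Of 18 genes for A20, TRAF, cIAP and RIPK proteins, 1 was lower (Tnfaip3), 11 lay below 0 and the median was -0.07. Over all 13665 genes tested, 6633 lay below 0 and the median was 0.01. Nfkbiz, an atypical IkB that acts in the nucleus, went from 16.7 and 13.5 to 154 and 134 CPM in RelA-WT and from 14.7 and 11.6 to 80.5 and 70.4 CPM in RelA-dTA1. Its libraries did not overlap at 0.5 h, but the difference of -0.71 ± 0.38 did not pass the test (adjusted p = 1).

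The transcription factor gene Irf1, which drives interferon-stimulated genes, had the smallest p of all (chr11:53770014-53778374, plus strand). It went from 53.6 and 55.5 to 513 and 447 CPM in RelA-WT and from 53.8 and 60.1 to 159 and 246 CPM in RelA-dTA1. The constructs were alike at 0 h and apart at 0.5 h, with a difference in log2 change of -1.29 ± 0.12 (adjusted p = 8.75e-08). Irf1 was the lower gene among 22 tested interferon regulatory factor and interferon-response genes, 14 of which lay below 0 (median -0.07). At 0.5 h Irf1 was the gene of the 22 that rose in RelA-WT.

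4 lower genes encode signalling proteins inside the cell. Pim1, a serine/threonine kinase that promotes survival (chr17:29490812-29496111, plus strand), went from 18.8 and 12.4 to 96.6 and 66.5 CPM in RelA-WT and from 16.1 and 11.5 to 38.7 and 32.5 CPM in RelA-dTA1. Its difference was -0.99 ± 0.15 (adjusted p = 4.69e-04). Gadd45b, a stress protein that restrains JNK signalling (chr10:80930091-80932204, plus strand), went from 31.8 and 30.3 to 186 and 148 CPM and from 30.04 and 29.6 to 89.1 and 83.7 CPM. All libraries of Pim1 and Gadd45b at 0.5 h were above those at 0 h of the same construct, and the RelA-dTA1 libraries formed the lower pair. The difference for Gadd45b was -0.88 ± 0.15 (adjusted p = 0.0031).

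Phlda1, a pleckstrin homology-like protein gene (chr10:111506286-111508645, plus strand), went from 30.5 and 39.5 to 123 and 142 CPM in RelA-WT and from 32.1 and 39.3 to 72.3 and 95.2 CPM in RelA-dTA1. It had the smallest difference of the 10, -0.68 ± 0.12 (adjusted p = 0.00297). Rnd1, whose product loosens the actin cytoskeleton (chr15:98663421-98677461, minus strand), went from 7.32 and 6.89 to 59.7 and 58.0 CPM and from 7.61 and 5.92 to 12.4 and 22.9 CPM. The RelA-dTA1 libraries of Rnd1 differed between sets more than the RelA-WT ones did. Its difference was -1.46 ± 0.28 (adjusted p = 0.0129).

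3 lower genes encode surface proteins. Tnfsf9, the gene of the T-cell costimulatory ligand 4-1BBL (chr17:57105385-57107757, plus strand), went from 2.55 and 2.97 to 25.1 and 23.6 CPM in RelA-WT and from 1.25 and 2.24 to 3.24 and 4.20 CPM in RelA-dTA1. It had the largest difference of the 10, -2.09 ± 0.30 (adjusted p = 1.07e-04), and the fewest reads, with 17 and 76 in RelA-dTA1 at 0.5 h against 136 and 317 in RelA-WT. Tlr2, a receptor for bacterial lipoproteins (chr3:83836272-83841767, minus strand), went from 21.8 and 12.8 to 64.7 and 45.4 CPM in RelA-WT and from 20.3 and 14.6 to 22.3 and 24.7 CPM in RelA-dTA1. Tlr2 barely moved in set 1 of RelA-dTA1 and the constructs overlapped at 0 h. Its difference was -1.19 ± 0.19 (adjusted p = 8.39e-04).

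Vcam1 encodes an adhesion molecule that captures leukocytes from the blood (chr3:116109949-116129688, minus strand). It went from 259 and 204 to 621 and 564 CPM in RelA-WT and from 219.9 and 231 to 278 and 344 CPM in RelA-dTA1. Vcam1 rose in both sets of both constructs, but its rise in CPM differed between sets more in RelA-dTA1 than in RelA-WT. The difference in log2 change was -0.90 ± 0.11 (adjusted p = 1.15e-05). Of 12 adhesion and surface genes tested, Vcam1 and Tlr2 were lower, 8 lay below 0 and the median was -0.10. Tnfsf9 was the lower gene among 17 tested cytokine and growth factor genes, 10 of which lay below 0 (median -0.19).

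**Figure D2:**
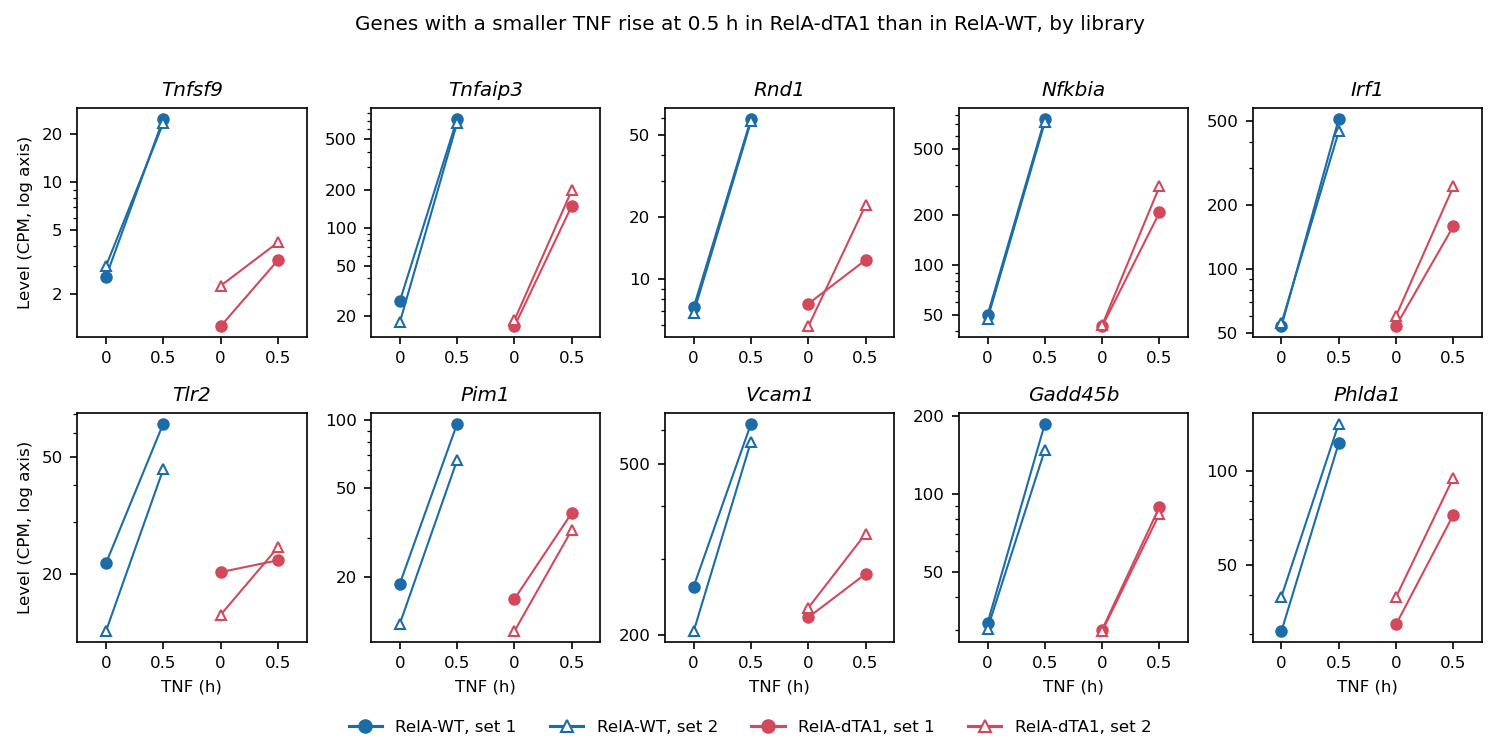
Level in CPM on a log axis at 0 h and 0.5 h for the 10 genes called lower, with RelA-WT in blue and RelA-dTA1 in red, and set 1 as filled circles and set 2 as open triangles. Every line climbs, and at 0.5 h both RelA-dTA1 points lie below both RelA-WT points in all 10 panels. The genes were picked by a test on these same libraries, so the order is a description.

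Expressed as a share of the RelA-WT rise in CPM of the same set, RelA-dTA1 kept 4.58% to 43.6% in set 1 (median 20.9%) and 9.50% to 54.6% in set 2 (median 35.3%). In set 1 Tlr2 and Tnfsf9 kept the least, at 4.58% and 8.86%. In set 2 Tnfsf9 kept the least, at 9.50%, and Tlr2 kept more than Tnfaip3. Phlda1 kept the most in both sets. The share was smaller in set 1 for 10 of the 10 genes. These genes were read in the same libraries and are not replicates, so the count is no test of a difference between sets. Set 1 is also where the Rela level of RelA-dTA1 was 73.6% of that of RelA-WT at 0 h, against 98.4% in set 2, and the part of that gap in the shares was not tested. In set 2, where the Rela levels were nearly equal, Nfkbia kept 37.5% of its rise, Tnfaip3 27.2%, Irf1 47.4% and Vcam1 31.4%.

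RelA without any transactivation domain and the empty vector place these shares on a scale. Both are set against the same RelA-WT libraries as RelA-dTA1, so the values are given side by side and their overlap is no separate evidence. In RelA-dTAD the 10 genes made a median of 2.41% of the RelA-WT rise in set 1 and 1.66% in set 2, and in EV 0.834% and -0.278%. Nfkbia illustrates it: EV went from 29.1 and 26.2 to 32.3 and 28.3 CPM, and RelA-dTAD from 32.2 and 30.2 to 36.3 and 31.1 CPM. For each of the 10 genes the share in RelA-dTA1 lay above that in RelA-dTAD and EV of the same set. The Rela level of RelA-dTAD is not given here, and its part in these shares was not tested. Phlda1 made the largest share without RelA, 25.5% and 32.1% of the RelA-WT rise in EV, and its change in EV passed the test (log2 0.88 ± 0.09, adjusted p = 1.24e-08). Against RelA-WT at 0.5 h, 26 genes were lower in EV (0.19%) and 33 in RelA-dTAD (0.241%), with 0 and 1 higher (0.00732% in RelA-dTAD). For EV higher, edgeR gave 154 genes at an unadjusted p under 0.05. The EV count was 12 without EV of set 2 and 17 without RelA-WT of set 2, and all calls in RelA-dTAD numbered 18 without either RelA-WT course.

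The test of RelA-dTA1 against RelA-dTAD asked what RelA without TA1 still activates, in part from the same RelA-dTA1 libraries. By edgeR it called 10 genes higher (0.0732%) and 0 lower (267 lower at an unadjusted p under 0.05), and DESeq2 called 9 in either direction. Among those higher were Nfkbia (log2 2.46 ± 0.15, adjusted p = 7.31e-12), Irf1 (1.70 ± 0.13, 8.68e-11), Gadd45b (1.31 ± 0.16, 5.06e-06), Tnfaip3 (2.81 ± 0.33, 3.25e-04) and Pim1 (0.98 ± 0.16, 6.62e-04). Klf10, a TGF-beta-inducible repressor, also passed (0.68 ± 0.14, adjusted p = 0.0239), and the other 4 were the ribosomal entries described further on. Vcam1 (0.43), Tlr2 (0.40), Tnfsf9 (0.76), Rnd1 (1.22) and Phlda1 (0.40) did not pass. The 3 surface genes, and also Rnd1 and Phlda1, thus had rises in RelA-dTA1 that this test did not separate from RelA-dTAD. Without RelA-dTA1 of set 2 the test called 4 genes, and without RelA-dTAD of set 2 it called 20.

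**Figure D3:**
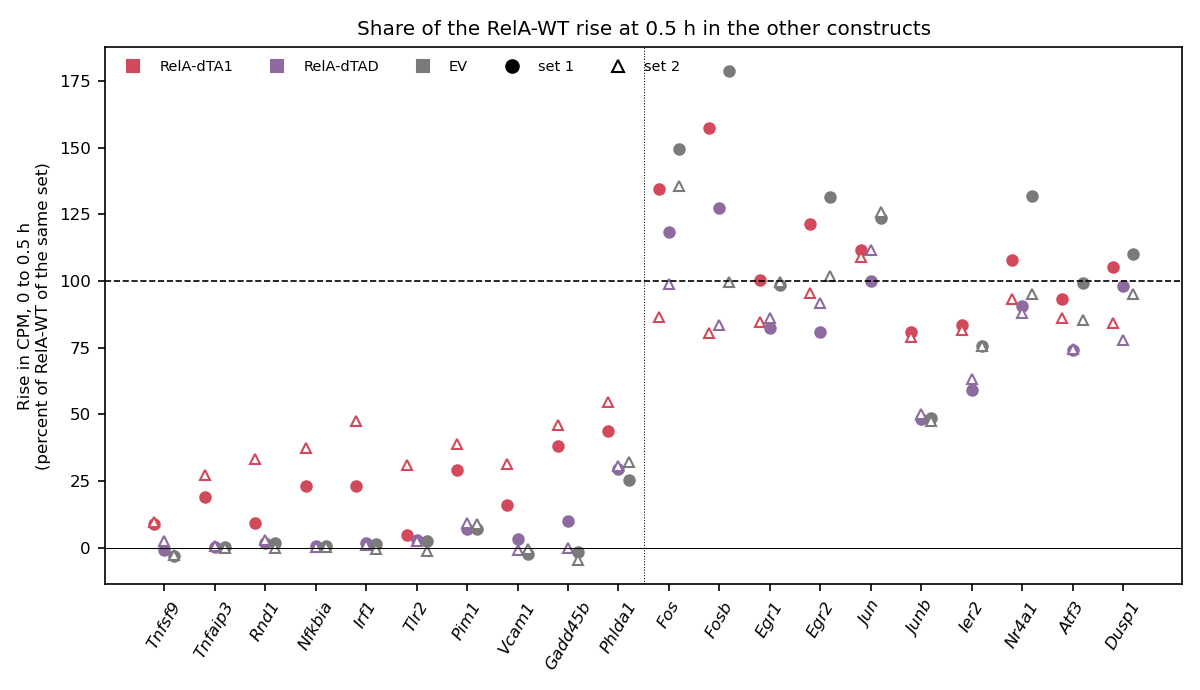
Rise in CPM from 0 to 0.5 h in RelA-dTA1, RelA-dTAD and EV as a percent of the RelA-WT rise of the same set, for the 10 lower genes (left of the dotted line) and the 10 immediate early genes of the panel (right). RelA-dTA1 lies at 4.58% to 54.6% for the lower genes and at 78.9% to 157% for these 10; other immediate early genes, given in the text, lie lower.

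Upstream sequence was available in RefSeq's table for 6 of the 10 lower genes (GRCm38.p6, 250 bases before the start site); Vcam1, Tnfsf9, Phlda1 and Rnd1 had no entry. A 10-base kB consensus, searched on both strands with overlapping matches merged, was found before Nfkbia, Irf1, Tnfaip3 and Tlr2, which is 66.7% of the 6, and not before Pim1 or Gadd45b. The same search found a match in 10.9% of the 10435 tested genes with an entry and in 7.25% of all 32851 entries. Of the 31 genes with a lower level at 0.5 h, described below, 23 had an entry, and 34.8% of these held a match. Matches also stood before genes called in neither test, such as Fos, Fosb, Egr2, Rel, Nfkb2 and Il6. Other such genes, among them Jun and Junb, had none. The 4 sequences are shown because they belong to the genes whose rise was smaller without TA1 and hold such a match. They run 5′ to 3′ on the gene's strand, and capitals mark the match.
Nfkbia, chr12:55492648-55492897, minus strand: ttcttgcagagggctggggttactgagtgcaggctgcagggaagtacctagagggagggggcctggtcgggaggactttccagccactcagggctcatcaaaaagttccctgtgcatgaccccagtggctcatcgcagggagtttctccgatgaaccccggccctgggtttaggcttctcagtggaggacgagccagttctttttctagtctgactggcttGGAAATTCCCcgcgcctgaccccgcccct
Irf1, chr11:53769764-53770013, plus strand: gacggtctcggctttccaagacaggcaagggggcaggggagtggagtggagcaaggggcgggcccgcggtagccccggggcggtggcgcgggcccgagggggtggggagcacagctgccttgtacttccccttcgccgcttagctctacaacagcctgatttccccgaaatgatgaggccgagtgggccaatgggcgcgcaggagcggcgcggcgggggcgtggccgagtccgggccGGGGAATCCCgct
Tnfaip3, chr10:19015411-19015660, minus strand: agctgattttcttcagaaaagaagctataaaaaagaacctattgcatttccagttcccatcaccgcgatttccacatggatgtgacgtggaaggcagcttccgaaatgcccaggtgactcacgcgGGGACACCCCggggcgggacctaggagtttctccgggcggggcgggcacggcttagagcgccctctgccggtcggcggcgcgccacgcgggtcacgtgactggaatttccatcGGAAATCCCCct
Tlr2, chr3:83841609-83841858, minus strand: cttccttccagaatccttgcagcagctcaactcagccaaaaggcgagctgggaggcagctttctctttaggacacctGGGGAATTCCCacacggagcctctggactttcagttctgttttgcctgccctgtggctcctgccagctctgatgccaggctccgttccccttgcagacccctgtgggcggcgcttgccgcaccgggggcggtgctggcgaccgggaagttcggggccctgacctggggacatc
Distances are from the RefSeq start of each entry, which for Tnfaip3 and Tlr2 lies inside the gene span given above, so their stretches overlap the annotated gene. The first base of the match lies 29 bases before the start of Nfkbia, 13 before Irf1, 125 and 12 before Tnfaip3 and 173 before Tlr2. Irf1 and Tnfaip3 each have a further annotated start whose 250 bases hold no match. A match is a description of the letters and shows neither binding nor a cause.

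The 4 genes called higher were CT010467.1, Mir6236, Gm15564 and Gm23935. They move with Gm42418, an annotation entry that collects ribosomal RNA reads and overlaps CT010467.1 on the opposite strand. Gm42418 took 0.143% of reads in RelA-dTA1 at 0 h in set 2, against 1.31% to 1.53% in the other 3 set 2 libraries and 0.00434% to 0.00702% in set 1. CT010467.1 had 16.1 CPM in RelA-WT and 1.24 CPM in RelA-dTA1 at 0 h in set 2, then 19.6 and 15.8 CPM at 0.5 h, and 0 to 0.381 CPM in set 1. The 0 h library of RelA-dTA1 in set 2 was low, and the others of set 2 lay close together, for a difference in log2 change of 3.41 ± 0.32 (adjusted p = 8.75e-08). Higher calls numbered 0 without RelA-dTA1 of set 2, without RelA-WT of set 2, with those ribosomal entries left out, or by DESeq2, and 7 with no filter on low counts, while the lower calls numbered 10 with the entries left out. edgeR gave 214 higher genes at an unadjusted p under 0.05. The level test at 0 h called the same 4 entries lower (0.0293%) and 0 genes higher (359 at an unadjusted p under 0.05). Its count was 44 without RelA-WT of set 1, and 1 without either set 2 course.

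Several steeply rising chemokine, cytokine and adhesion genes did not pass the test of the difference. Sele, the gene of E-selectin, went from 2.23 and 2.43 to 128 and 164 CPM in RelA-WT and from 1.799 and 2.14 to 12.0 and 33.5 CPM in RelA-dTA1. The RelA-dTA1 libraries were far below at 0.5 h, but the difference of -2.28 ± 0.55 did not pass by edgeR (adjusted p = 0.469), though it did by DESeq2 (-2.44, adjusted p = 0.00216). Ccl20, a chemokine for dendritic cells and lymphocytes, went from 2.07 and 1.64 to 62.5 and 53.4 CPM and from 0.554 and 1.04 to 6.48 and 10.0 CPM. Its 0 h libraries in RelA-dTA1 held 4 and 21 reads, and the difference was -1.67 ± 0.67 (adjusted p = 1). Cxcl1, a neutrophil chemokine, went from 12.7 and 9.39 to 501 and 371 CPM and from 11.2 and 8.31 to 179 and 119 CPM, and did not pass either (-1.37 ± 0.64, adjusted p = 1). Cxcl2 rose from 1 read to 373 over both RelA-WT sets, a ratio of 377 with a 95% counting interval of 67.2 to 14919. Tnf itself had 0 reads in RelA-WT at 0 h and 55 at 0.5 h, at least 18.5-fold higher with a floor of 3 reads over the group. In RelA-dTA1 Tnf had 1 and 4 reads, a ratio of 4.68 with an interval of 0.463 to 230; both the intervals and the floor reflect counting error alone.

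The level at 0.5 h, which needs no 0 h value, separated more of these genes. It called 31 genes lower in RelA-dTA1 than in RelA-WT (0.227%) and 0 higher (197 at an unadjusted p under 0.05), with a median log2 difference of -1.004, and -0.48 for the smallest. It rests on the same 0.5 h libraries as the difference in change and so adds no independent support. Sele (-2.56 ± 0.25, adjusted p = 6.25e-06), Ccl20 (-2.64 ± 0.31, 5.92e-05) and Cxcl1 (-1.57 ± 0.29, 0.0176) were among them. Tlr2 did not pass this test of levels (-1.12 ± 0.25, adjusted p = 0.104). Of 17 chemokine genes tested, 5 were lower at 0.5 h. In the difference of changes 0 of the 17 passed by edgeR or DESeq2 (6 lower at an unadjusted p under 0.05), 16 lay below 0 and the median was -0.60, or -0.54 without 5 genes of very few reads. Zfp36, which encodes the mRNA decay factor tristetraprolin, went from 13.4 and 15.03 to 420.4 and 436 CPM in RelA-WT and from 12.9 and 17.8 to 265 and 244 CPM in RelA-dTA1. Its level at 0.5 h was lower (-0.75 ± 0.14, adjusted p = 0.0148) while its change was not called (-0.89 ± 0.29, adjusted p = 1). The interferon-inducible chemokine Cxcl10 (level -1.03 ± 0.16, adjusted p = 0.00393) and the stress gene Ier3 (-0.83 ± 0.15, 0.0142) were alike in this. Without any 1 of RelA-WT of set 1, RelA-WT of set 2 and RelA-dTA1 of set 1, the count was 20, 20 and 18.

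The named immediate early genes of AP-1 and the Egr family did not pass the test of the difference. Fos, a subunit of AP-1, went from 8.27 and 6.03 to 175 and 151 CPM in RelA-WT and from 9.41 and 6.22 to 234 and 132 CPM in RelA-dTA1. The 4 libraries at 0.5 h interleaved, and the difference was -0.03 ± 0.42 (adjusted p = 1). In EV, without RelA, Fos went from 9.25 and 5.54 to 258 and 203 CPM. Egr1 went from 175 and 89.2 to 1322 and 1118 CPM in RelA-WT and from 187 and 100.0 to 1339 and 969.9 CPM in RelA-dTA1, a difference of -0.21 ± 0.44. These intervals are wide, so they do not show that the constructs act alike. Of 11 AP-1 genes, 9 rose in RelA-WT and 10 in RelA-dTA1, with 0 called different by edgeR or DESeq2 (0 at an unadjusted p under 0.05) and a median difference of -0.03. Of 36 Egr, Nr4a and other immediate early genes, 25 rose in RelA-WT and 25 in RelA-dTA1, with 1 lower (Gadd45b) and a median of -0.05. At an unadjusted p under 0.05 this list held 5 genes, all lower: Gadd45b, Gem (-0.72), Rcan1 (-0.53), Nr4a2 (-0.39) and Klf10 (-0.28). Over all 13665 genes tested, 213 were lower and 214 higher at that unadjusted p. At the level at 0.5 h 4 of the 36 were lower, Gadd45b, Nr4a2 (-0.49), Ier3 (-0.83) and Csrnp1 (-0.66). The 10 immediate early genes of the panel shown in the plot of shares (Fos, Fosb, Egr1, Egr2, Jun, Junb, Ier2, Nr4a1, Atf3 and Dusp1) made 78.9% to 157% of the RelA-WT rise in RelA-dTA1. That range does not hold for the whole list, since Nr4a2 made 42.9% and 56.3%, Gem 38.0% and 54.2%, and Rcan1 22.5% and 61.4%.

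Junb, a subunit of AP-1, rose in RelA-dTAD and EV by less than Fos did relative to RelA-WT. It went from 40.6 and 42.4 to 408 and 428 CPM in RelA-WT and from 35.8 and 40.2 to 333 and 345 CPM in RelA-dTA1, or 80.9% and 78.9% of the RelA-WT rise. RelA-dTAD made 48.4% and 50.0% of it and EV 48.7% and 47.3%. The difference for RelA-dTA1 was -0.19 ± 0.19 and did not pass (adjusted p = 1). TNF raised 99 genes in EV (0.724%) and 120 in RelA-dTAD (0.878%). The 87 genes that rose in both included 1 lower gene (Phlda1), with 49 below 0 and a median difference of -0.02. That list used neither RelA-WT nor RelA-dTA1.

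The remaining lists held 1 call. Pim1 was lower among 9 SOCS and cytokine feedback genes (median -0.22). In 13 MAP kinase phosphatase and ERK feedback genes, 7 mRNA decay regulators, 16 survival genes, 15 MHC class I genes, 15 SRF-linked cytoskeletal genes, 18 cell cycle genes, 14 cholesterol synthesis genes and 11 fibroblast markers, 0 genes passed by edgeR or DESeq2. At an unadjusted p under 0.05 these 8 lists held 1, 2, 0, 1, 0, 2, 1 and 1 genes. The medians of the cell cycle and cholesterol lists were 0.23 and 0.24, with 17 of 18 and 13 of 14 genes above 0. The cell cycle genes had a median change of 0.02 in RelA-WT and 0.24 in RelA-dTA1. Their levels in RelA-dTA1 against RelA-WT had a median of -0.26 at 0 h, with 18 of 18 below 0, and -0.03 at 0.5 h. For the cholesterol genes these medians were -0.32 and -0.06, so in both lists the constructs lay further apart at 0 h than at 0.5 h. Over all lists, 25 further genes reached an unadjusted p under 0.05 with the same sign in both sets. Of these, 23 were lower, and the 2 higher were the mitotic kinases Cdk1 and Plk1. Over all 13665 genes tested, edgeR gave 213 lower and 214 higher at that unadjusted p, whatever their sign in each set. The lists were chosen with earlier results of these data known.

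Because choosing genes by their RelA-WT rise would also choose upward error in RelA-WT, genes were picked in one set and read in the other. The 139 genes with a RelA-WT log2 change of at least 1 in set 1 had, in set 2, a median change of 1.25 in RelA-WT and 0.80 in RelA-dTA1. Their median difference was -0.34, with 114 of 139 below 0, while the 11989 genes read in the same way had a median of 0.00. The 148 genes picked in set 2 had, in set 1, medians of 1.31 and 0.83 and a median difference of -0.39, with 100 of 148 below 0, against 0.01 over 13001 genes. Genes that EV raised little in the set of choice (log2 under 0.5) differed by a median of -0.37 (70 genes) and -0.77 (69 genes). Those that EV raised by at least 1 differed by -0.27 (47 genes) and -0.05 (53 genes). These are descriptions over genes, which are not replicates.

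The difference was also read at 1, 3 and 8 h, from courses that share their 0 h libraries with it, so the values are given side by side. At 1 h, 35 genes were lower (0.256%) and 4 higher (0.0293%), the latter again ribosomal entries. Irf1 (-1.09 ± 0.12, adjusted p = 7.92e-07), Nfkbia (-1.01 ± 0.14, 4.97e-05) and Pim1 (-0.97 ± 0.15, 1.70e-04) were lower at 1 h, and so were Rnd1 (-1.505) and Phlda1 (-0.52). Vcam1 reached 1367 and 1409 CPM in RelA-WT against 526 and 685 CPM in RelA-dTA1 at 1 h (difference -1.18 ± 0.11, adjusted p = 4.01e-08), and Tlr2 161 and 137 against 41.1 and 54.5 CPM (-1.61 ± 0.18, 7.92e-07). Tnfsf9 peaked at 1 h, at 58.0 and 54.5 CPM in RelA-WT against 6.73 and 8.74 CPM in RelA-dTA1 (-2.23 ± 0.28, adjusted p = 6.47e-06). Tnfaip3 (-1.18 ± 0.27, adjusted p = 0.101) and Gadd45b (-0.57 ± 0.15, adjusted p = 0.143) did not pass at 1 h.

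At 3 h and 8 h fewer of these genes passed. 6 genes were lower at 3 h (0.0439%) and 10 at 8 h (0.0732%), with 3 (0.022%) and 7 (0.0512%) higher, or 0.0659% and 0.124% in all. The 3 higher at 3 h and 4 of the 7 at 8 h were ribosomal entries, and the others at 8 h were Rela, Zyx and Lbh. Nfkbia stood at 489.9 and 444 CPM in RelA-WT and at 336 and 390.1 CPM in RelA-dTA1 at 3 h, a difference of -0.17 ± 0.14 (adjusted p = 1). Tnfaip3 stood at 427 and 275 against 303 and 280.1 CPM and no longer separated the constructs (0.03 ± 0.27). Vcam1 stayed lower at 3 h (-0.64 ± 0.11, adjusted p = 0.00701), at 2787 and 2556 against 1527 and 1853 CPM. Tlr2 was lower at 8 h (-1.06 ± 0.18, adjusted p = 0.00198), at 235 and 159 against 89.1 and 95.6 CPM. The complement gene C3 and the invariant chain gene Cd74 were lower at 3 h and at 8 h, and were chosen after their values were seen. Rela reads rose in RelA-dTA1 relative to RelA-WT by 8 h (0.64 ± 0.08, adjusted p = 1.79e-05), as did Zyx and Lbh. The 10 lower genes at 8 h, Tlr2, C3 and Cd74 among them, went the other way. The part of the Rela level in the 8 h values was not tested. All calls at 1 h fell from 39 to 13 without RelA-WT of set 2 and to 20 without RelA-dTA1 of set 2. At 3 h they fell from 9 to 3 without RelA-WT of set 2 and to 4 without RelA-dTA1 of set 1. At 8 h the 17 calls became 10 without RelA-WT of set 1, 2 without RelA-WT of set 2, 7 without RelA-dTA1 of set 1 and 26 without RelA-dTA1 of set 2.

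**Figure D4:**
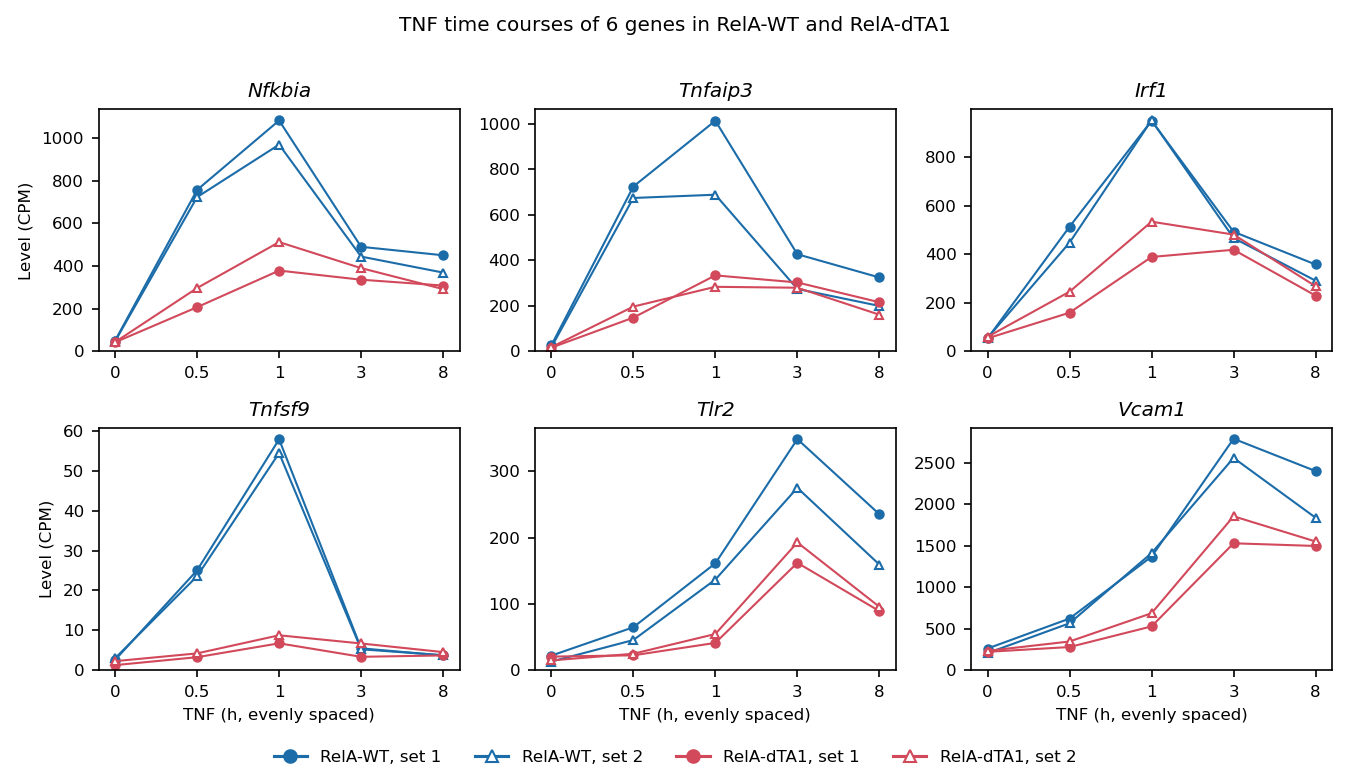
Level in CPM at 0, 0.5, 1, 3 and 8 h of TNF (evenly spaced) for 6 genes, RelA-WT in blue and RelA-dTA1 in red, set 1 as filled circles and set 2 as open triangles. The RelA-WT lines of Vcam1 and Tlr2 lie above the RelA-dTA1 lines from 0.5 h to 8 h, while those of Tnfaip3 meet at 3 h in set 2 (275 and 280.1 CPM).

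TA1 was also removed from RelA variants with an altered TA2, labelled RelA-TA2_CI and RelA-TA2_CI_S467A, in libraries the 8 above do not include. Each of these constructs had 1 course, in set 2, assumed to vary like the replicated ones, and the labels do not say which residues CI changes. The Rela levels of these constructs are not given here, and their part in the values was not tested. The mean of the 2 comparisons called 6 genes lower (0.0398% of 15090 tested) and 3 higher (0.0199%), the latter ribosomal entries, or 0.0596% in all. The 6 were Nfkbia (-2.07 ± 0.13, adjusted p = 5.09e-12), Irf1 (-1.61 ± 0.11, 5.09e-12), Gadd45b (-1.15 ± 0.14, 8.55e-06), Tnfaip3 (-2.74 ± 0.28, 1.04e-04), Vcam1 (-0.64 ± 0.11, 0.00187) and Pim1 (-0.81 ± 0.15, 0.00573). They make 6 of the 6 lower calls there and 6 of the 10 genes lower in the plain background, and the other 4 of the 10 also lay below 0. Nfkbia went from 42.0 to 254 CPM in RelA-TA2_CI and from 34.1 to 48.3 CPM once TA1 was gone too. In RelA-TA2_CI_S467A it went from 40.3 to 281 CPM and, without TA1, from 34.5 to 58.4 CPM. Tnfaip3 went from 19.3 to 182 CPM in RelA-TA2_CI and from 9.31 to 16.2 CPM without TA1.

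With TA2 altered and TA1 removed, Nfkbia thus reached 48.3 and 58.4 CPM, against 207 and 297 CPM in RelA-dTA1. Irf1 went from 55.2 to 178 CPM in RelA-TA2_CI and from 48.4 to 62.8 CPM without TA1. Vcam1 showed the same order at a lower rise, from 193 to 281 CPM and from 155 to 157 CPM. The test of whether the loss of TA1 differed between these backgrounds and the plain one called 0 genes by edgeR, with 257 lower and 207 higher at an unadjusted p under 0.05. For Nfkbia that contrast was -0.71 ± 0.18 (unadjusted p = 5.60e-04, adjusted p = 1).

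**Figure D5:**
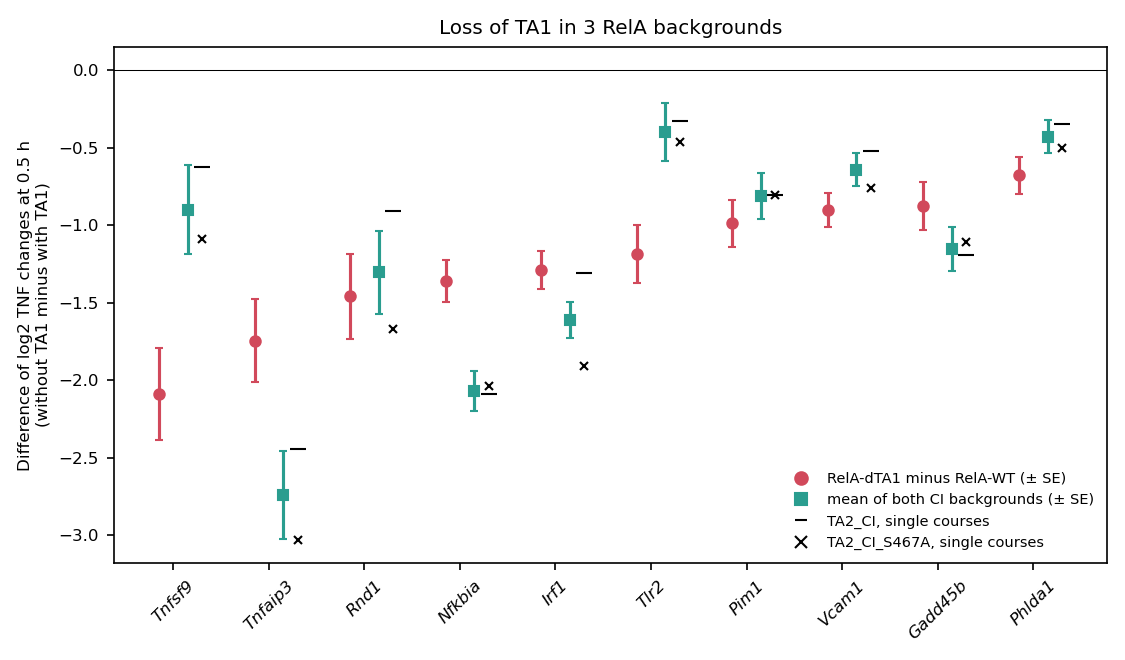
Difference of the log2 TNF changes at 0.5 h without TA1 and with TA1, for the 10 lower genes, in the plain background (red, ± SE) and as the mean of both backgrounds with an altered TA2 (green, ± SE), with the single courses of RelA-TA2_CI and RelA-TA2_CI_S467A in black. All points lie below 0, and Nfkbia lies at -1.36 in the plain background and -2.07 in the others.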

How the data were processed

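Polyadenylated RNA was read as single-end 50 bp libraries made with a stranded kit, per the labels' protocols. Per the submitters' processing notes, cutadapt 1.9.1, STAR, featureCounts 1.5.0 and DESeq2 were used with mm10; the annotation release and strand setting are not given in the sources used here, so antisense and overlapping genes are uncertain. The files the authors deposited hold raw counts per gene for 45706 genes, in 1 table per set.

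Counts were tested with edgeR 4.0.16 (R 4.3.3, limma 3.58.1): filterByExpr (13665 genes kept), TMM scaling and robust quasi-likelihood F-tests, with a threshold of 0.05 on p-values adjusted by Benjamini-Hochberg across the genes kept. The fit used the 40 libraries of RelA-WT, RelA-dTA1, RelA-dTAD and EV, with 1 term per construct and set and 1 per construct and time (16 residual degrees of freedom). The spread thus comes from all 4 replicated constructs. Levels were tested with the set as an additive block, and the altered TA2 backgrounds in all 75 libraries (15090 genes kept). The set numbers come from the names of the deposited counts, which the authors gave as sets 1 and 2. The sample titles give replicate 1 or 2, and only for the replicated constructs. Same-numbered libraries deviated together (correlations of 0.511 to 0.602 over 6 pairs of groups). The fit set each library against its own course and did not pair RelA-dTA1 with RelA-WT by set. CPM use TMM-scaled library sizes. Alternatives were DESeq2 1.42.0, its size factors in edgeR, no filter on low counts, other blocks, fewer constructs and leaving out 1 library course at a time. The scripts were tested on simulated data.

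Genes are named where they passed the threshold in the main comparison, belong to a fixed panel, are list members with an unadjusted p under 0.05 and 1 sign in both sets, or lead the level tests. The members and lists were chosen with earlier results of these data known, so counts over lists are descriptions.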

Additional observations from a re-analysis of the deposited data

Results flagged for a closer look

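The effect of losing TA1 differed between 0.5 h and 1 h for 3 genes by a test of that difference, added after the data were seen (0.022% of genes tested were called lower, and 0 higher, with 146 higher at an unadjusted p under 0.05). Nfatc1, a transcription factor of the calcineurin pathway, had a difference between RelA-dTA1 and RelA-WT of -0.23 ± 0.20 at 0.5 h and -1.42 ± 0.18 at 1 h. The change between the times was -1.19 ± 0.17 (SE, n = 2 per group, edgeR adjusted p = 0.0012). It stood at 23.6 and 20.2 CPM in RelA-WT and 21.7 and 15.8 CPM in RelA-dTA1 at 0.5 h (set 1, then set 2), and at 120.3 and 117 against 42.3 and 43.2 CPM at 1 h. Ripk2, a kinase of the NOD receptor pathway, had differences of -0.10 ± 0.19 and -1.30 ± 0.17 and a change of -1.20 ± 0.17 (adjusted p = 0.00207). In RelA-WT it went from 28.7 and 37.3 CPM at 0.5 h to 196 and 261 CPM at 1 h, against 21.5 and 34.9, then 55.9 and 113 CPM, in RelA-dTA1. Pfkfb3, a regulator of glycolysis, had differences of 0.13 ± 0.20 and -0.98 ± 0.19 and a change of -1.12 ± 0.19 (adjusted p = 0.0177). It went from 21.4 and 32.8 to 75.9 and 110.0 CPM in RelA-WT and from 21.7 and 34.5 to 34.3 and 54.4 CPM in RelA-dTA1. For these 3 genes the libraries of both constructs overlapped at 0.5 h and did not overlap at 1 h. At 0 h RelA-WT held 17.8 and 16.7 CPM of Nfatc1, 25.9 and 32.1 of Ripk2, and 21.6 and 41.0 of Pfkfb3. They had thus risen little or not at all in RelA-WT by 0.5 h, so the 0.5 h difference compares small changes. At 3 h the differences were -0.43 ± 0.17 (Nfatc1), -0.53 ± 0.17 (Ripk2) and -0.04 ± 0.18 (Pfkfb3) and did not pass.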

How the results depend on the processing

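Nfkbia and Irf1 were called lower in all 11 alternatives run on the main comparison. None of the 10 lower genes changed sign, and the others kept their call in 6 (Gadd45b, Phlda1) to 9 (Pim1, Tnfsf9, Vcam1) of the 11. With DESeq2's size factors in edgeR 10 genes were lower, with only the constructs compared 9, and by DESeq2 11. With an additive block for the set in place of 1 term per construct and set, 6 genes were lower. At 8 h, 8 genes were called. Without any block for the set the main comparison called 2 lower and 0 higher. The other counts were then 111 for RelA-WT, 86 for RelA-dTA1, 11 for EV and 11 for RelA-dTAD against RelA-WT, 3 for RelA-dTA1 against RelA-dTAD, 0 at 1 h, 0 at 3 h, 0 at 8 h, 0 for levels at 0 h, 11 for levels at 0.5 h and 3 in the altered TA2 backgrounds. With no filter on low counts the same counts were 28 lower and 7 higher, 319, 418, 54, 119, 82, 97, 50, 111, 79, 62 and 102. Higher calls numbered 0 by DESeq2 and 0 without the ribosomal entries, an alternative chosen after seeing the data. DESeq2 called 0 genes for levels at 0 h, and the fit with only the constructs compared called 5 at 3 h. The cause was not tested for any of these.

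Leaving out 1 course at a time gave 4 to 10 lower and 0 to 4 higher genes, 93 to 140 calls for RelA-WT, 67 to 124 for RelA-dTA1, 12 to 19 for EV and 18 to 30 for RelA-dTAD against RelA-WT, 4 to 20 for RelA-dTA1 against RelA-dTAD, 13 to 36 at 1 h, 3 to 9 at 3 h, 2 to 26 at 8 h, 1 to 44 for levels at 0 h and 18 to 21 for levels at 0.5 h. The lone course was then assumed to vary like the others. For the altered TA2 backgrounds, with 1 course each, it was not run.

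Apart from Gm15564, the genes that changed sign had not passed the test. Fos and Fosb stood at 0.031 and 0.015 with the additive block, 0.0497 and 0.055 without a block, and 0.00136 and 0.068 by DESeq2. Csf2 was -0.20 and Gm15564 -0.12 by DESeq2. With 1 course left out, the log2 differences ranged from -0.033 to 0.12 (Nfkb1), -0.27 to 0.37 (Rel), -0.43 to 0.10 (Birc3), -4.06 to 0.95 (Csf2), -0.34 to 0.52 (Dusp1), -0.60 to 0.14 (Egr1), -0.29 to 0.18 (Egr2), -0.17 to 0.13 (Fos), -0.23 to 0.45 (Fosb), -0.18 to 0.43 (Jun), -0.043 to 0.044 (Rela), -0.15 to 0.074 (Sod2), -1.03 to 1.08 (Traf1), -4.07 to 1.45 (Gm15564) and -0.059 to 0.0401 (Tnip1). Genes with few reads at 0 h, such as Tnf and Cxcl2, have changes that this depth does not fix.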
